A study of Mus musculus with 16 samples.

Results

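Mitochondria in heart muscle cells are reshaped by proteins that join, divide and fold their membranes, and the RNA of 10 genes for such proteins is described here. The 10 genes were taken by symbol from the table of 35682 counted genes, and each symbol matched 1 row: Mfn1, Mfn2, Opa1, Oma1, Yme1l1, Dnm1l, Fis1, Mff, Immt and Phb2. The samples were adult ventricular myocytes of 16 mice, 8 wild-type (WT) littermates and 8 mice of the B3AR-Tg line, whose name refers to the beta-3 adrenoceptor. All 16 animals had transverse aortic constriction (TAC), a narrowing of the aorta that loads the left ventricle, and were collected 9 weeks later. The comparison asks how the genotypes differed under this load. No animals without surgery were analysed here. The age and sex of the animals, the promoter that drives the transgene and the species of the receptor were not given in the sources used here. The cells were freed by Langendorff perfusion and plated for 1 hour before RNA was taken.

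Outer mitochondrial membranes are joined by the GTPases mitofusin 1 and mitofusin 2, and inner membranes by the GTPase OPA1. The proteases OMA1 and YME1L cut OPA1 into short forms, OMA1 mainly under stress. Division is driven by the GTPase DRP1 (gene Dnm1l), which is recruited to the outer membrane by receptors such as MFF, while mitofilin (Immt) and prohibitin 2 (Phb2) hold the folds of the inner membrane, the cristae. In cardiac myocytes, loss of mitofusins or of DRP1 is known to damage the heart, and the activity of these proteins is set largely after translation.

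All 10 genes were well counted in these libraries. Totals ran from 5985335 to 14365864 counts per animal, and the 10 genes held between 153 (Oma1) and 7331 (Immt) counts in a library. Levels are given as CPM, the counts divided by each library's TMM-scaled size, and group values are mean ± SD over 8 animals. The receptor gene Adrb3 itself held 0 to 4 counts in every library, while Adgrb3, a gene of similar name, held 0 to 3 counts in WT and 247 to 723 in B3AR-Tg. Cardiomyocyte markers were strong in every library, with Myh6, Tnnt2, Tnni3, Actc1, Ryr2 and Pln summing to between 31994 and 42523 CPM in WT and between 38486 and 45122 CPM in B3AR-Tg. The medians of these sums were 36655 and 42519 CPM. Of the 6 genes, 1, Ryr2, was called higher in B3AR-Tg (log2 fold change 0.46, edgeR adjusted p = 0.0359). Myh6 (0.27), Tnni3 (0.15), Actc1 (0.10) and Pln (0.14) were positive and Tnnt2 (−0.16) was negative, and none of these passed. The share of counts from the mitochondrial genome was 23.5% ± 3.14 for WT and 22.1% ± 1.29 for the B3AR-Tg animals (exact permutation p = 0.246, two-sided, n = 8 a group).

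None of the 10 genes passed an adjusted p of 0.05 in edgeR's quasi-likelihood test, where 4.91% of the 10945 tested genes did. All 10 passed the low-count filter. At an unadjusted p under 0.05 there was 1, Oma1, against 19.3% of tested genes. DESeq2 called 1, also Oma1 (adjusted p = 0.0432), and limma voom called 0. Of the 10945 tested genes, DESeq2 called 804 and limma voom 706, against 537 by edgeR. The fitted log2 fold changes, B3AR-Tg over WT, ran from −0.11 for Yme1l1 to 0.33 for Oma1, with 6 above 0 and 4 below. Their median was 0.02, against 0.01 over all tested genes. The ranges of the genotypes overlapped for each of the 10, where 0.201% of tested genes had all B3AR-Tg animals above all WT animals and 0.247% had them below.

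**Figure D1:**
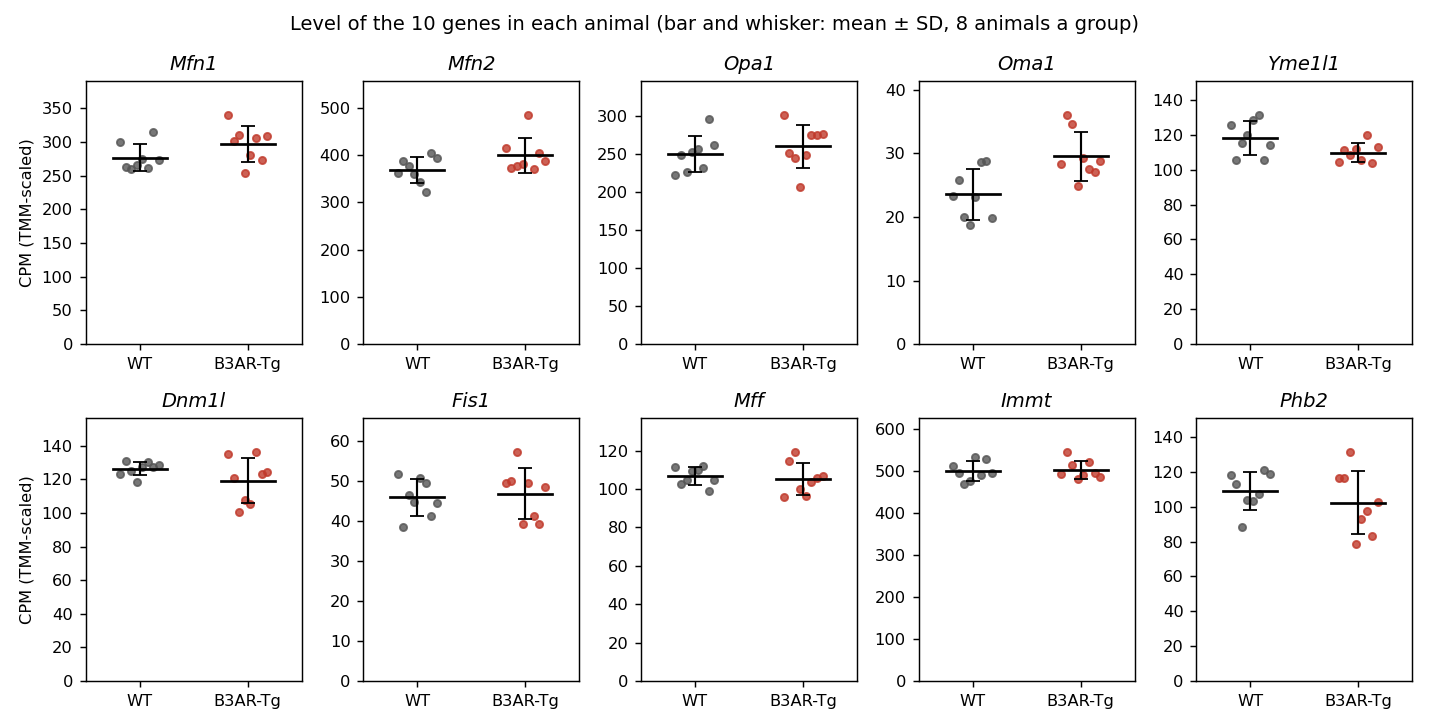
Level of each of the 10 genes in CPM (vertical axes, from 0) in the 8 WT and 8 B3AR-Tg animals, with 1 point per animal, the mean as a bar and the SD as a whisker. The groups overlap in all 10 panels, and Oma1 has all B3AR-Tg points above the WT median of 23.2 CPM.

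Oma1 (ENSMUSG00000035069, chromosome 4, 103313812 to 103371868, plus strand, in the GENCODE M21 annotation of GRCm38, as for the other genes) encodes the stress-activated protease that cuts OPA1. WT animals lay between 18.7 and 28.8 CPM with a median of 23.2, and B3AR-Tg animals between 24.9 and 35.9 with a median of 28.5. All 8 B3AR-Tg animals were above the WT median, while WT replicates 2 (25.7 CPM), 6 (28.7) and 7 (28.8) reached into the B3AR-Tg range. The means were 23.5 ± 4.0 and 29.5 ± 3.8 CPM, fitted as a log2 fold change of 0.33 (standard error 0.11, 95% interval 0.11 to 0.55, edgeR adjusted p = 0.0742). Without WT replicate 6 or WT replicate 7 the adjusted p was 0.0472 and 0.0447, and over all 28 alternatives it ran from 0.0392 to 0.658. Every alternative gave a positive value.

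Yme1l1 (ENSMUSG00000026775, chromosome 2, 23156369 to 23199260, plus strand) encodes the other protease, which cuts OPA1 in unstressed mitochondria. WT animals lay between 105.7 and 131 CPM with a median of 117, and B3AR-Tg animals between 104 and 119.9 with a median of 109.9. Only B3AR-Tg replicate 6 was above the WT median. The log2 fold change was −0.11 (standard error 0.07, 95% interval −0.25 to 0.03, edgeR adjusted p = 0.400).

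Because both proteases act on the same substrate, their log2 ratio was taken within each animal, where library scaling cancels. It was −2.33 ± 0.28 in WT and −1.90 ± 0.20 in B3AR-Tg. The WT animals ran from −2.67 to −1.87 with a median of −2.44, and the B3AR-Tg animals from −2.16 to −1.63 with a median of −1.90, so all 8 B3AR-Tg animals lay above the WT median and the ranges overlapped. The Oma1 to Yme1l1 ratio was thus higher in B3AR-Tg by 0.44 on the log2 scale, or 1.35-fold (exact permutation p = 0.00420, two-sided, over all splits into 8 and 8; 0.0126 after Benjamini-Hochberg adjustment over the 3 ratios computed). It passed with each animal left out in turn (adjusted exact permutation p from 0.00280 to 0.0256). These are the genes with the highest and the lowest fold change of the 10, and the ratio was chosen with earlier results of these data known, so its p describes a difference already seen and is no independent support for it. The ratio compares counts of 2 genes of different length, so only its difference between genotypes can be read.

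Markers of other cell types moved with genotype beside these values. The mean log2 CPM of 24 fibroblast, endothelial, mural and leukocyte markers was lower in the B3AR-Tg animals, at 1.42 ± 0.49 against 2.10 ± 0.21 (exact permutation p = 0.00124, n = 8 a group). Fibroblast markers summed to 31.5 to 89.1 CPM in WT and 9.18 to 40.9 CPM in B3AR-Tg, with 3 of 5 tested markers lower by edgeR. Endothelial markers summed to 71.2 to 117 and 32.8 to 134 CPM (2 of 6 lower), mural markers to 87.2 to 162 and 47.4 to 142 CPM (0 of 6 called), and leukocyte markers to 4.03 to 10.5 and 0.706 to 5.36 CPM (0 of 2 called). The median sum was lower in B3AR-Tg for fibroblast, endothelial and leukocyte markers but not for mural markers. The mural sums had medians of 96.3 for WT and 103 for B3AR-Tg animals. Among the mural markers only Acta2 had a positive log2 fold change, 0.42, which did not pass. The others were negative, at −0.75 for Pdgfrb, −0.64 for Cspg4, −0.58 for Myh11, −0.34 for Rgs5 and −0.09 for Kcnj8. None of these passed either. The T cell marker Cd3e was at 0 counts in all 16 libraries. In bulk RNA, fewer cells of a type and less RNA per cell cannot be told apart. With the marker level as a covariate, the Oma1 log2 fold change was 0.15 (edgeR adjusted p = 0.658) and that of Yme1l1 −0.17, a gap of 0.33 between them against 0.44 without it. For the other 8 genes the log2 fold changes with this covariate were 0.07 for Mfn1, 0.17 for Mfn2, 0.12 for Opa1, −0.05 for Dnm1l, −0.18 for Fis1, −0.11 for Mff, −0.05 for Immt and −0.25 for Phb2 (edgeR adjusted p from 0.443 to 0.867). The part of other cell types in these values was not tested beyond this fit, since marker level and genotype move together.

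**Figure D2:**
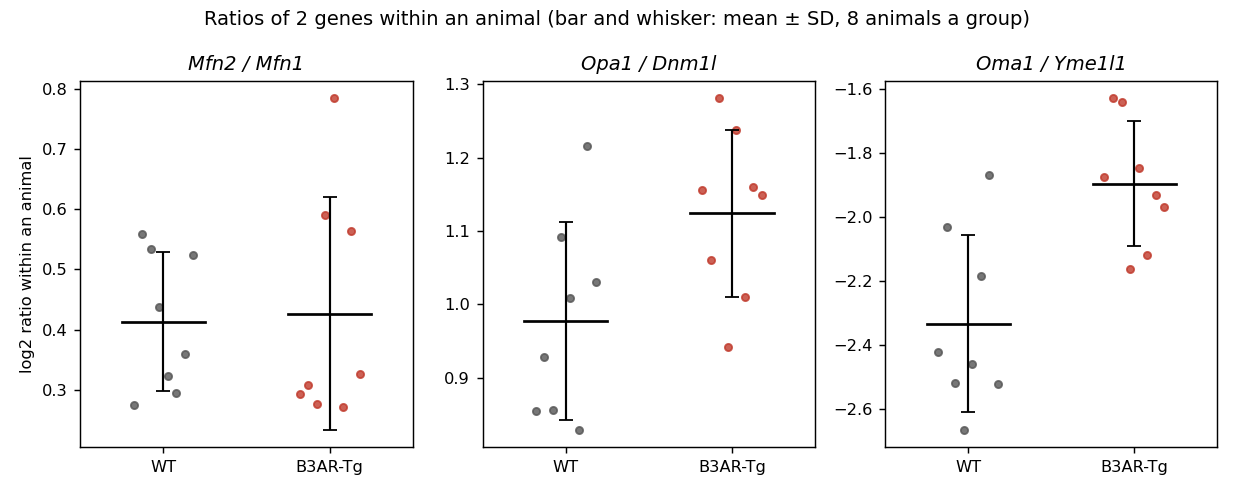
Log2 ratio of CPM within each animal (vertical axes, not starting at 0) for Mfn2 over Mfn1, Opa1 over Dnm1l and Oma1 over Yme1l1, with 1 point per animal, the mean as a bar and the SD as a whisker. The Oma1 to Yme1l1 ratio shifts from a mean of −2.33 in WT to −1.90 in B3AR-Tg, while Mfn2 to Mfn1 has means of 0.41 and 0.43.

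None of the 3 fusion GTPases passed the test of genotype. Mfn2 (ENSMUSG00000029020, chromosome 4, 147873599 to 147904704, minus strand), which also tethers mitochondria to the endoplasmic reticulum, lay between 321 and 404 CPM in WT with a median of 369.6, and between 369 and 484 in B3AR-Tg with a median of 385. Of the B3AR-Tg animals 7 were above the WT median, and replicate 5 was the highest at 484 CPM. The log2 fold change was 0.11 (standard error 0.07, 95% interval −0.04 to 0.27, edgeR adjusted p = 0.423), and 0.07 without that animal. Mfn1 (ENSMUSG00000027668, chromosome 3, 32529465 to 32579239, plus strand) lay between 260 and 315 CPM in WT with a median of 269.8, and between 253 and 339 in B3AR-Tg with a median of 304. It too had 7 of 8 B3AR-Tg animals above the WT median, with replicate 4 the exception at 253 CPM. Its log2 fold change was 0.10 (standard error 0.07, 95% interval −0.05 to 0.25, edgeR adjusted p = 0.466). The log2 ratio of Mfn2 to Mfn1 was 0.41 ± 0.12 for WT and 0.43 ± 0.19 for B3AR-Tg, which differ by 0.01 (exact permutation p = 0.859, also after adjustment over the 3 ratios).

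Opa1 (ENSMUSG00000038084, chromosome 16, 29579334 to 29654884, plus strand), the inner-membrane GTPase and substrate of both proteases, lay between 223 and 296 CPM in WT with a median of 251. B3AR-Tg animals lay between 207 and 301 CPM with a median of 263, so the WT range fell within theirs, and 5 of 8 were above the WT median. Its log2 fold change was 0.06 (standard error 0.08, 95% interval −0.11 to 0.23, edgeR adjusted p = 0.741).

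Dnm1l (ENSMUSG00000022789, chromosome 16, 16312230 to 16358959, minus strand) encodes the GTPase that divides the organelle. It was the most even of the 10 genes in WT, between 119 and 131 CPM with a median of 127 and a coefficient of variation of 3.15%. In B3AR-Tg it lay between 100.4 and 136 CPM with a median of 122 and a coefficient of variation of 11.3%, and replicates 3, 4 and 5 were the lowest, at 100.4, 107.5 and 105.6 CPM. The log2 fold change was −0.08 (standard error 0.07, 95% interval −0.23 to 0.07, edgeR adjusted p = 0.560). The log2 ratio of Opa1 to Dnm1l was 0.98 ± 0.14 in WT and 1.12 ± 0.11 in B3AR-Tg, with 7 of 8 B3AR-Tg animals above the WT median. That difference of 0.15 did not pass after adjustment over the 3 ratios (exact permutation p = 0.0376, adjusted p = 0.0564). With each animal left out in turn it passed in 4 of 16 fits. These were without WT replicate 4 (adjusted exact permutation p = 0.0422), WT replicate 7 (0.0138), B3AR-Tg replicate 4 (0.0270) or B3AR-Tg replicate 6 (0.0441). In the rest the adjusted exact permutation p reached 0.105. With animals paired by replicate number it did not pass either (adjusted exact permutation p = 0.105).

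The fission receptors did not pass either. Mff (ENSMUSG00000026150, chromosome 1, 82724890 to 82752394, plus strand), a tail-anchored receptor for DRP1, was at 106.8 ± 4.7 CPM in WT (98.9 to 112, median 107) and 105.3 ± 8.3 CPM in B3AR-Tg (95.7 to 119, median 104.8). Fis1 (ENSMUSG00000019054, chromosome 5, 136953275 to 136966234, plus strand), a small outer-membrane protein named for fission, was at 46.0 ± 4.7 CPM in WT (38.5 to 51.8, median 45.6) and 46.9 ± 6.3 CPM in B3AR-Tg (39.3 to 57.3, median 49.0). The ranges overlapped for each, with B3AR-Tg animals reaching lower and higher than WT for Mff and higher than WT for Fis1. Coefficients of variation were 4.42% in WT and 7.88% in B3AR-Tg for Mff, and 10.2% and 13.5% for Fis1. The log2 fold changes of Mff and Fis1 were −0.02 (95% interval −0.15 to 0.11, edgeR adjusted p = 0.905) and 0.03 (−0.16 to 0.22, 0.897). The sign of neither was stable over the alternatives, Mff being at 0.06 when scaled by library totals only.

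The cristae genes had the narrowest and the widest spread of the 10 in B3AR-Tg, with coefficients of variation of 4.36% for Immt and 17.6% for Phb2. Immt (ENSMUSG00000052337, chromosome 6, 71831331 to 71877388, plus strand), core subunit of the MICOS complex at the necks of cristae, was at 499.5 ± 23.2 CPM in WT (469 to 533, median 495) and 502 ± 21.9 CPM in B3AR-Tg (479.5 to 544, median 493). Its log2 fold change was 0.01 (95% interval −0.12 to 0.13, edgeR adjusted p = 0.968), and its sign also turned under upper quartile scaling. Phb2 (ENSMUSG00000004264, chromosome 6, 124712336 to 124716950, plus strand), a subunit of the ring-shaped prohibitin scaffold, was at 109 ± 10.9 CPM in WT (88.1 to 121, median 110.2) and 102 ± 18.1 CPM in B3AR-Tg (78.5 to 131, median 100.2). The B3AR-Tg animals reached beyond the WT range at both ends, replicate 4 being the lowest and replicate 3 the highest. The log2 fold change of Phb2 was −0.09 (standard error 0.10, 95% interval −0.30 to 0.12, edgeR adjusted p = 0.665).

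**Figure D3:**
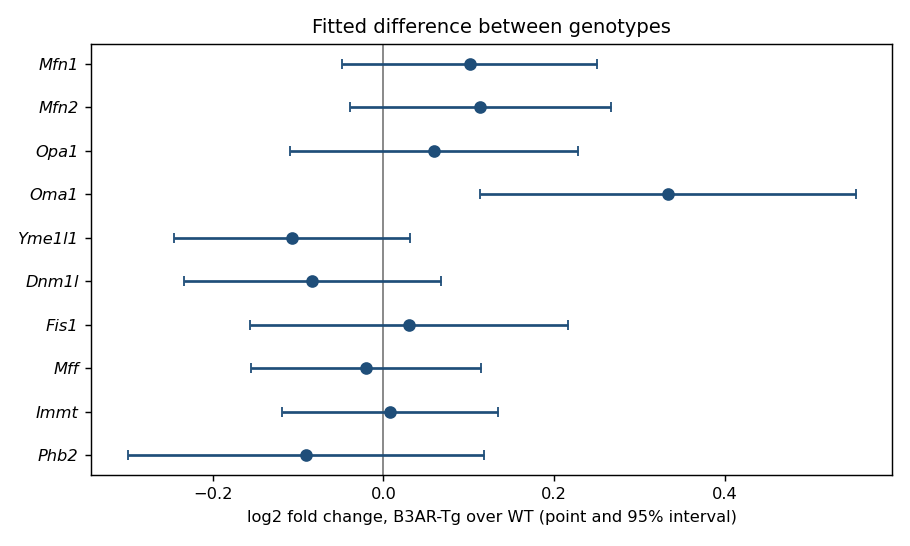
Fitted log2 fold change of each gene, B3AR-Tg over WT (horizontal axis), as a point with its 95% interval, which is not adjusted for the number of genes tested. The interval of Oma1, 0.11 to 0.55, lies above 0 and the other 9 intervals hold 0.

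Levels were compared between genes per kilobase, as CPM divided by the exon length of all coding transcripts in GENCODE M21. In WT, Immt was highest at 173 ± 8.07 CPM per kilobase, and its range did not meet that of any other of the 10 genes. Phb2 (81.3 ± 8.14) and Mfn2 (71.2 ± 5.38) overlapped in range, and they exchanged places in B3AR-Tg (76.3 ± 13.4 and 77.1 ± 7.29). Next came Mfn1 (49.7 ± 3.59), Mff (49.0 ± 2.16), Fis1 (41.7 ± 4.24) and Opa1 (39.1 ± 3.70), each overlapping the next. Dnm1l (27.9 ± 0.878) and Yme1l1 (25.1 ± 2.06) overlapped below them. Oma1 was lowest of the 10 in both genotypes, at 12.3 ± 2.07 CPM per kilobase in WT and 15.4 ± 1.99 in B3AR-Tg. Which isoforms were used is not known from gene counts, and with the longest coding transcript as the length Mfn2 ranked above Phb2 in WT as well.

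The 10 genes did not vary as a block between animals. Each gene's log2 CPM was set relative to its genotype mean, and Pearson correlations were taken over the 16 animals for the 45 pairs, of which 29 were positive, with a median of 0.15. All values share the scaling of their library, so pairs are not independent. P-values are from 100000 permutations of animals within genotype, adjusted over the 45 pairs, and 2 pairs passed by Pearson r. Pairs of other genes were not counted in this way, so no background share stands beside these counts. Mfn1 and Phb2 varied together (r = 0.77, permutation adjusted p = 0.0283; Spearman rho = 0.81, adjusted p = 0.014), at 0.66 within WT and 0.83 within B3AR-Tg, and at 0.67 without the 2 animals with the most extreme Mfn1. Mfn2 and Yme1l1 varied in opposite directions (r = −0.76, permutation adjusted p = 0.0283; rho = −0.84, adjusted p = 0.00495), at −0.91 within WT and −0.63 within B3AR-Tg, and at −0.84 without the 2 animals with the most extreme Mfn2. Mfn2 and Mff came next (r = −0.70, permutation adjusted p = 0.0534; rho = −0.71, adjusted p = 0.0384), a pair that passed by rho but not by r. The mitofusins themselves had r = 0.09 and rho = 0.04, which did not pass the permutation test. The TMM scaling factor was lowest in WT replicate 6 (0.903), with Mfn2 at 321 CPM and Yme1l1 at 131 CPM. It was highest in B3AR-Tg replicate 5 (1.14), with Mfn2 at 484 CPM and Yme1l1 at 105 CPM. Whether the Mfn2 and Yme1l1 pair follows the make-up of the libraries was not tested.

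**Figure D4:**
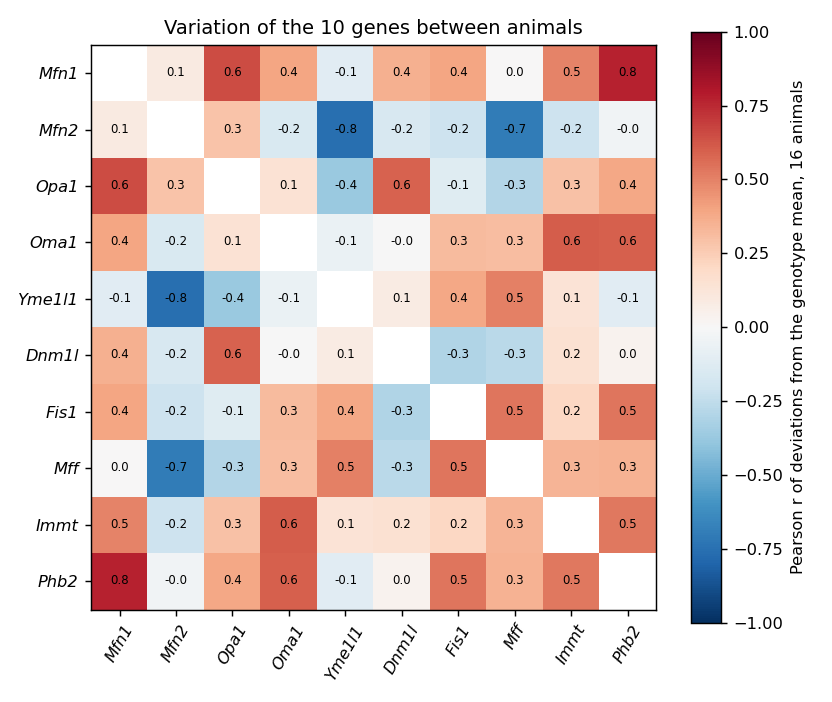
Pearson r between each pair of the 10 genes over 16 animals, after subtracting each genotype's mean (colour scale from −1 to 1, values printed in the cells). The darkest cells are Mfn1 with Phb2 at 0.77 and Mfn2 with Yme1l1 at −0.76.

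Among all other tested genes, those with the highest correlation to Mfn2 on the same within-genotype values were Vcp (r = 0.83, rho = 0.83), Nudcd3 (0.82 and 0.74) and Ipo9 (0.82 and 0.80). Vcp encodes a AAA ATPase that extracts ubiquitinated proteins, Nudcd3 a co-chaperone and Ipo9 a nuclear import receptor. For Opa1 they were Klhl31 (0.87 and 0.87), Msi2 (0.85 and 0.87) and Gm12191 (0.81 and 0.83), and for Dnm1l they were Aph1b (0.80 and 0.78), Dand5 (0.78 and 0.71) and Rnf216 (0.75 and 0.55). These were picked as the highest of all tested genes over 16 animals, so no p is given. Without the 2 animals most extreme in the reference gene, r stayed between 0.71 and 0.84 for the Mfn2 and Opa1 genes, and was 0.63, 0.65 and 0.47 for the 3 Dnm1l genes. None of the 9 passed in edgeR's test of genotype (adjusted p from 0.252 to 0.902).

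Around the 10 genes, 62 other genes of mitochondrial dynamics, cristae, cardiolipin, transport and import were in the table, in 8 lists. Of these, 58 passed the low-count filter, 1 was higher and 1 lower in B3AR-Tg by edgeR, against 2.03% and 2.88% of all tested genes in these directions. Their median log2 fold change was 0.03. Pld6, Gdap1, Mtfr2 and Inf2 were too low to test.

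Cds2, which makes the phospholipid precursor CDP-diacylglycerol in the endoplasmic reticulum, was the gene that rose. WT animals lay between 60.5 and 81.7 CPM with a median of 69.2, and B3AR-Tg animals between 71.8 and 120.4 with a median of 97.8, so all 8 were above the WT median. The log2 fold change was 0.41 (standard error 0.11, edgeR adjusted p = 0.0282). It no longer passed without WT replicate 1 (adjusted p = 0.0563), WT replicate 4 (0.0658), B3AR-Tg replicate 5 (0.0635) or B3AR-Tg replicate 8 (0.0530). With the other-cell marker covariate the log2 fold change was 0.64 (edgeR adjusted p = 0.0400). The other 8 tested genes of its cardiolipin list, among them Crls1 (the cardiolipin synthase) and Taz (the remodelling enzyme tafazzin), did not pass, at −0.15 and 0.23.

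Spire1, an actin nucleator with a mitochondrial isoform that acts in division, fell from 7.90 ± 1.40 to 5.47 ± 0.843 CPM. WT animals lay between 5.75 and 10.1 CPM with a median of 7.91, and B3AR-Tg animals between 4.40 and 6.54 with a median of 5.45, none above the WT median. The log2 fold change was −0.53 (standard error 0.14, edgeR adjusted p = 0.0283). It no longer passed without WT replicate 2 (adjusted p = 0.0555), 4 (0.0723) or 8 (0.0549), or without B3AR-Tg replicate 2 (0.0545), 6 (0.0506) or 8 (0.0631). With the other-cell marker covariate it was −0.39 (edgeR adjusted p = 0.380). Whether the counted RNA came from the mitochondrial isoform cannot be read from gene counts.

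**Figure D5:**
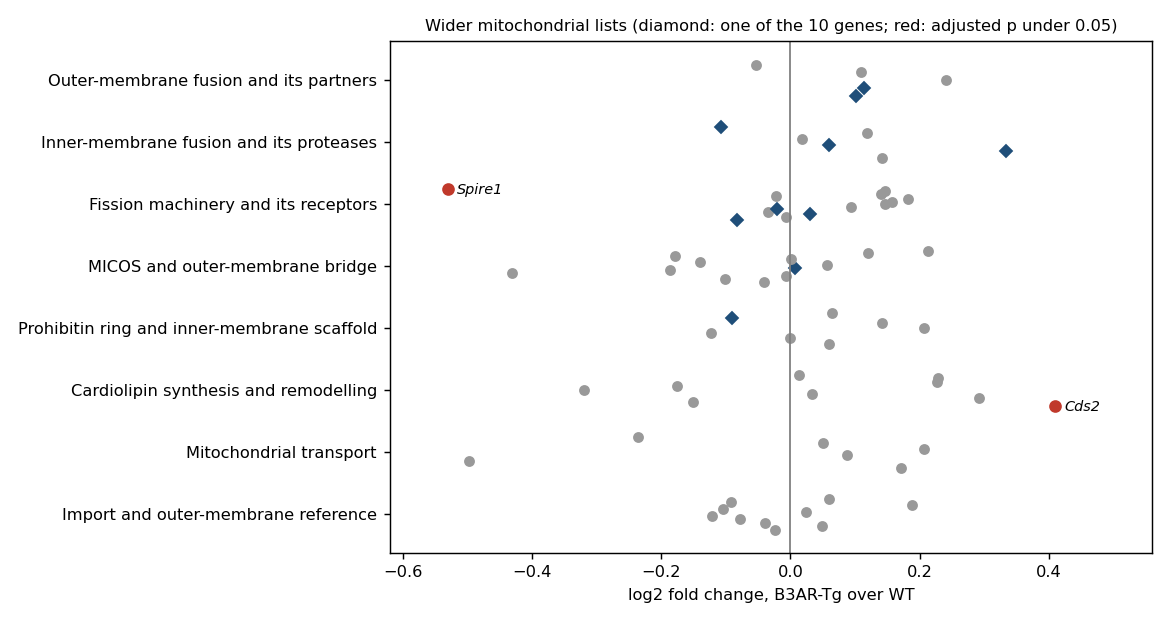
Log2 fold change, B3AR-Tg over WT, of every tested gene in 8 mitochondrial lists (rows), with the 10 genes as diamonds, other genes as circles and genes past an adjusted p of 0.05 in red. Cds2 at 0.41 and Spire1 at −0.53 are the only red points.

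The other lists gave no call. Among 11 tested partners of Immt in MICOS and the bridge to the outer membrane, 4 had positive log2 fold changes and the median was −0.04. The prohibitin and scaffold list held 6 other genes with a median of 0.06, and Phb, the partner of Phb2 in the ring, was at 0.14 (edgeR adjusted p = 0.697). The 10 fission genes beside Dnm1l, Fis1 and Mff had a median of 0.12, Spire1 included. For the 6 transport genes the median was 0.07, with 4 positive and 2 negative. The positive ones include the Miro GTPases Rhot1 (0.09) and Rhot2 (0.21). The negative ones were Kif5b (−0.50, edgeR adjusted p = 0.0821) and Trak2 (−0.24, edgeR adjusted p = 0.173), and Kif5b had the largest change of this list. The 10 import and outer-membrane genes, taken as a reference list, had a median of −0.03, between −0.12 for Tomm22 and 0.19 for Vdac1. Mitochondrial content itself was not measured.

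The 250 bases before the start of each gene, from RefSeq (GRCm38.p6), were found for all 10 genes, in 15 windows, and searched on both strands for 4 motifs known from promoters of mitochondrial genes. The NRF1 motif GCGCANGCG was in 5.16% of all 32851 such windows and in those of Oma1 and Opa1. The ETS motif CCGGAAGT was in 2.88% of all windows and in windows of Mfn1, Fis1 and Phb2. The estrogen-related receptor half-site AAGGTCA (4.08% of all windows) and the cAMP response element TGACGTCA (1.55%) had no match in the 15 windows. The stretches around the NRF1 matches are shown because Oma1 is the gene that came nearest to the threshold and Opa1 encodes its substrate, written 5′ to 3′ with the match in capitals. The Oma1 match is on the minus strand, and the stretch lies inside the gene by GENCODE M21, which places its start upstream of the RefSeq start. Opa1 has overlapping matches on both strands, and that on the plus strand is marked. The motifs were chosen after the expression values had been seen, and the NRF1 motif was shortened by 1 letter after a first search, with the same genes matched. A match is a description of letters and was not linked to any measurement here.
Oma1, chr4:103313814-103313843, plus strand: gaaaggtgtgCGCCTGCGCggagccggctg
Opa1, chr16:29579265-29579294, plus strand: gtggctccccGCGCATGCGcatgtcatccg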

How the data were processed

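Per the labels' protocols, 500 ng of RNA per animal went into stranded total RNA libraries after ribodepletion, read from both ends. The authors deposited raw gene counts as whole numbers, a column for each animal, without normalization. Salmon and GRCm39 stand in the submitters' processing notes without a version, so the deposited counts may be rounded estimates. The annotation release and strand setting were not given in the sources used here. Genes were tested with edgeR 4.0.16 (quasi-likelihood F test, genotype only) in R 4.3.3 after filterByExpr (minimum count 10, minimum total 15) and TMM scaling, with Benjamini-Hochberg adjustment over 10945 genes, a threshold of 0.05 and two-sided tests. CPM values use TMM-scaled totals, and log2 values for ratios and correlations a prior count of 2. DESeq2 1.42.0, limma 3.58.1 (voom), other scalings, filters, covariates, a replicate block and each animal left out were the alternatives. The fits were tested on simulated data. The 10 genes, the lists and the ratios were chosen with earlier results of these data known. Genes named outside the 10 followed a rule: those past the threshold in each list, at most 3 in each direction by p, and the 3 genes most correlated with Mfn2, Opa1 and Dnm1l. Further names give context for a list and were chosen after their values were seen. Of the table's IDs, 35394 were found in GENCODE M21 (GRCm38). By BLAST 2.17.0, other transcripts at least 90% identical over 200 bases were found for Dnm1l, Immt and Yme1l1, and these other genes held 0 counts in every library. Titles name separate biological replicates. No limit from sequencing depth was set here beyond the low-count filter.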

Additional observations from a re-analysis of the deposited data

Results flagged for a closer look

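In each group of 8 animals, the highest and the lowest value were set against the others by Dixon's test, for the 10 genes, Cds2, Spire1 and the 3 ratios. Of 30 groups searched, 1 held an animal past the 95% critical value, where chance gives 1.5. Mfn2 was high in B3AR-Tg replicate 5, at 484 CPM. The other 7 animals of that group lay between 369 and 416 CPM, which makes a gap of 0.563 of the group's range on the log2 scale. Without this animal the Mfn2 log2 fold change was 0.07 (edgeR adjusted p = 0.636).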

How the results depend on the processing

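Of the 10 genes, 0 passed in edgeR's test, and 1, Oma1, passed with library totals only, with DESeq2, at an adjusted p under 0.1, and without WT replicate 6 or 7; leaving out each animal gave 0 to 1. Over all genes, 537 passed, against 804 with DESeq2, 706 with limma voom and 511 with library totals only. The count was 230 with the replicate block, 25 with the other-cell marker covariate and 908 at an adjusted p under 0.1. Leaving out each animal gave 272 to 675, with 272 without WT replicate 4, 277 without B3AR-Tg replicate 5 and 345 without B3AR-Tg replicate 8. Calls higher in B3AR-Tg were 41.3% with TMM and 67.7% with library totals only. The Opa1 to Dnm1l difference ran from 0.12 to 0.18, and the Oma1 to Yme1l1 difference from 0.39 to 0.50, with each animal left out. The replicate numbers belong to different animals, and same-numbered animals did not deviate together (r from −0.22 to 0.09); with the block Oma1 did not pass, Cds2 (adjusted p = 0.0935) and Spire1 (0.103) no longer passed, and the paired Oma1 to Yme1l1 difference was 0.44 (adjusted exact permutation p = 0.0469). Spire1 also did not pass with library totals only (adjusted p = 0.102) or with no low-count filter (0.0623). The signs of Fis1, Mff and Immt turned under some alternatives, Fis1 reaching −0.18 with the other-cell marker covariate, under which Phb2 moved from −0.09 to −0.25. The 95% intervals of the 10 genes belong to the main fit alone, and 9 of them hold 0. They do not cover the choice of fit. The Fis1 value of −0.18 with the other-cell marker covariate lay outside its interval of −0.16 to 0.22.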
